A study of Oncorhynchus mykiss with 9 samples.

Results

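The miRNAs miR-221 and miR-222 form a small cluster, and their liver levels were followed here in rainbow trout under lack of oxygen. The deposited small-RNA tables list 1413 miRNA entries, and 6 of them carry a name that starts with miR-221- or miR-222-. These 6 are the subject, picked by their names with earlier results of these data known. Wild-type trout gave liver tissue in 3 groups of 3 libraries, namely acute hypoxia, moderate hypoxia and an untreated control. The title codes of the hypoxia libraries carry the number 12, read here as a time of 12 h. Control titles carry no such number, so a difference in sampling time cannot be told apart from hypoxia. Oxygen level, age and sex are not in the labels, nor is it stated that each library is a fish of its own. All p-values therefore measure only the spread between these libraries, which may be technical.

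In mammals miR-221 and miR-222 are cut from 1 shared primary transcript and carry the same seed, the stretch near the 5′ end that pairs with target mRNAs. They are known there to restrain the cell cycle inhibitor CDKN1B and, in vessel-lining cells, the receptor KIT. Both are known to be raised in mammalian liver tumours and in activated hepatic stellate cells, the scar-forming cells of the liver. In zebrafish miR-221 is known to act in sprouting vessels.

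The 6 deposited sequences are shown because they decide which entries can be read as 1 molecule. They run 5′ to 3′ as deposited, with T for U, and capitals mark the seed, bases 2 to 8.
miR-222-y: aGCTACATctggctactgggtctc
miR-222-z: aGCTACATctggctactgggtctcaa
miR-222-x: tGCTCAGTaggcagtgtagatcc
miR-221-z: aGCTACATtgtctgctgggttt
miR-221-y: aGCTACATtgtctgctgggtttt
miR-221-x: aCCTGGCAtacaatgtagattt

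The 4 entries ending in y and z share the seed GCTACAT, and no other entry of the 1413 has it. Their first 8 bases are identical between miR-221 and miR-222, after which miR-221-z and miR-222-y hold the same base at only 11 of 22 positions in all. The miR-221-y sequence is that of miR-221-z with 1 further T, so the pair are 3′ length forms of one arm. In the same way miR-222-z repeats all 24 bases of miR-222-y and adds 2. The x entries come from the opposite arm of each hairpin, have seeds of their own (GCTCAGT and CCTGGCA), and share that seed with no other entry. What the letters x, y and z stand for is not stated in the file.

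Abundance is given in TPM, here reads of an entry scaled to a common total of 1000000 per library. Each read covers a whole miRNA, so no division by length is needed to compare entries. Whether all sequences were captured equally was not tested, so ranks and ratios between entries compare reads only. Libraries held 8443326 to 16515713 reads, and 3 reads equal 0.182 to 0.355 TPM. The hepatocyte miRNAs miR-122, miR-192 and miR-194, which mark the labelled liver, had reads in all 7 entries and summed to 342298 to 568742 TPM per library. A set of 38 entries with names from an imprinted miRNA cluster that placental mammals carry summed to 252 and 307 TPM in moderate hypoxia libraries 1 and 2, and to between 3.02 and 5.41 TPM in the other 7 libraries. Moderate hypoxia library 3 lay between libraries 1 and 2 for 86 of the 98 entries that average 100 TPM or more. The same held for 268 of all 481 tested entries (55.7%) and for 4 of the 6 members. Whether library 3 is independent of the other two was not tested. Main values of miR-222-y, miR-221-z and miR-126, and the counts of the stroma, vessel growth, liver cancer and fibrosis lists, are therefore also given without moderate hypoxia libraries 1 and 2, and without library 3. For miR-221-y and miR-222-x these omissions kept every adjusted p between 0.366 and 0.998 in the comparisons with moderate hypoxia, and for miR-222-z between 0.0975 and 0.708.

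One member carried most of the cluster's reads. The miR-222-y entry ranked at place 25 of 1413 by mean abundance, with 2945 TPM over the 9 libraries, and it was the highest of the 6 in 9 of 9 libraries. It made up 74.1 to 79.4% of the cluster's reads under acute hypoxia, 88.2 to 88.5% under moderate hypoxia, and 49.1, 83.4 and 84.1% in the controls. Its neighbours in abundance were miR-200-y above it at 3456 ± 930 TPM and miR-30-y below it at 2428 ± 950 TPM, against 2945 ± 1302 TPM for miR-222-y (SD over 9 libraries). The ranges of mean ± SD overlap for these 3. That SD includes the differences between groups, and the 3 were not compared within libraries.

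Next in the order came miR-222-x with a mean of 296.5 TPM, miR-221-z with 256 TPM and miR-221-y with 131 TPM. The first 2 of these changed places between libraries, with miR-222-x ahead in 7 of 9. The longer miR-221-y lay below miR-221-z in 9 of 9. At the end stood miR-222-z with 1.06 TPM and miR-221-x with 0.940 TPM, with miR-222-z above miR-221-x in 3 of 9 libraries. A mean of 1 TPM was needed for the test, so miR-222-z lies just inside and miR-221-x just outside, and 5 of the 6 were tested. The miR-222-z mean reached 1 TPM only with the moderate hypoxia libraries included. Its group means were 0.411 TPM under acute hypoxia, 1.66 TPM under moderate hypoxia and 1.12 TPM in control.

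**Figure D1:**
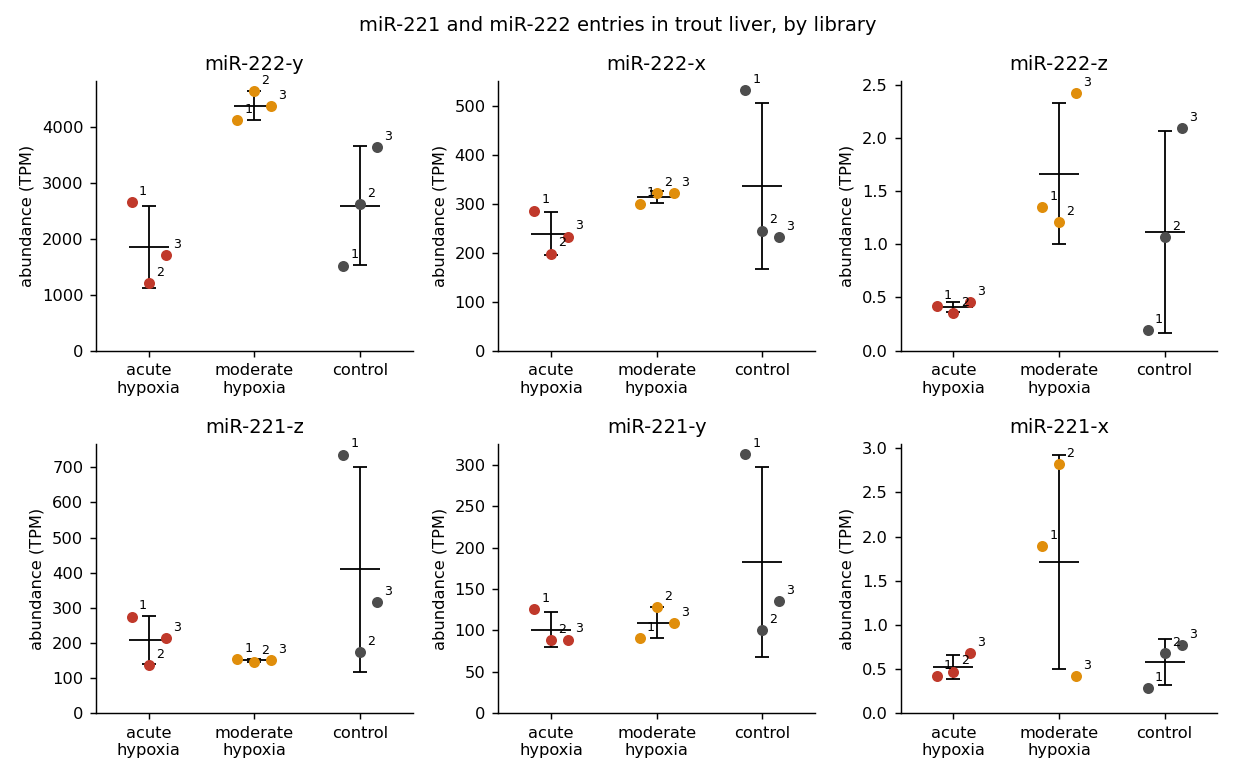
Abundance of the 6 entries in TPM (linear axes from 0), with 1 point per library, its number beside it, and the group mean ± SD (n = 3) in black. For miR-222-y the acute hypoxia libraries lie at 1213 to 2653 TPM, below the moderate hypoxia libraries at 4122 to 4647 TPM, while control 1 stands above the other controls for miR-222-x, miR-221-z and miR-221-y.

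The comparison of acute with moderate hypoxia asks how the 2 kinds of oxygen shortage differ, and it gave the one member that passed the test. The dominant miR-222-y read 2653, 1213 and 1707 TPM under acute hypoxia, against 4122, 4647 and 4372 TPM under moderate hypoxia. Every acute library lay below every moderate one. The group means were 1858 ± 732 TPM under acute and 4380 ± 263 TPM under moderate hypoxia (SD, n = 3 each), a ratio of 0.424. On the scale of log2(TPM + 1) the change was -1.31 (SE 0.34, 95% interval -2.05 to -0.57, limma adjusted p = 0.0163 over 481 entries). The median change of all tested entries was 0.32 here, and relative to it miR-222-y stood at -1.63.

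This call was not firm. Its adjusted p ranged from 0.00582 to 0.163 over 21 alternatives, with a log2 change of -1.67 to -1.04. It was lost without acute hypoxia library 2 (-1.04, adjusted p = 0.0698), library 3 (-1.29, adjusted p = 0.0609) or moderate hypoxia library 2 (-1.27, adjusted p = 0.0524), and without moderate hypoxia libraries 1 and 2 together (-1.31, adjusted p = 0.163). It held without moderate hypoxia library 3 (-1.31, adjusted p = 0.0307). The authors' deposited table, from a test that is not named, gives miR-222-y a log2 fold change of -1.24 and a false discovery rate of 0.000855. There 165 of 1413 entries (11.7%) have a false discovery rate under 0.05.

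The other members did not pass between acute and moderate hypoxia. The rare long form miR-222-z read 0.422, 0.355 and 0.455 TPM under acute hypoxia, against 1.35, 1.21 and 2.42 TPM under moderate hypoxia, again with no overlap. That is 12 reads in the 3 acute libraries (95% exact counting interval 6.20 to 21) and 73 in the 3 moderate ones (57.2 to 91.8), intervals that cover counting error only. Its log2 change was -0.89 (SE 0.33, limma adjusted p = 0.0632, and 0.0217 to 0.144 over 20 alternatives). The entry passed the filter only with the moderate hypoxia libraries included, so neither the gap nor this test can serve as support. In the authors' deposited table its false discovery rate is 0.00575 with a log2 fold change of -2.01, a scale without the added 1 TPM that draws low values together here.

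The opposite arm miR-222-x read 286, 198 and 233 TPM under acute hypoxia, against 300, 322 and 321 TPM under moderate hypoxia. These groups did not overlap either, but the log2 change of -0.41 (95% interval -1.08 to 0.26) did not pass (limma adjusted p = 0.313, and 0.0310 to 0.614 over 21 alternatives). It passed with quantile normalization, at -1.03.

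Both length forms of miR-221 overlapped between the hypoxia groups. The shorter miR-221-z had 275, 137 and 215 TPM under acute hypoxia, against 154, 147 and 152 TPM under moderate hypoxia, with a log2 change of 0.41 (95% interval -0.55 to 1.38, limma adjusted p = 0.503). Quantile normalization turned this value to -0.19. Without moderate hypoxia libraries 1 and 2 the value was 0.40, and without library 3 it was 0.42. For miR-221-y the acute libraries had 126.1, 88.5 and 88.9 TPM and the moderate ones 91.1, 128 and 109 TPM, with a log2 change of -0.12 (95% interval -0.92 to 0.69, adjusted p = 0.824). The untested miR-221-x had 5, 4 and 6 reads under acute hypoxia, against 21, 42 and 7 under moderate hypoxia. Its higher counts fall in moderate hypoxia libraries 1 and 2, those with the reads named for the mammalian imprinted cluster, and the part of those reads in it was not tested.

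In total 1 of the 5 tested members (20%) was lower under acute than moderate hypoxia and none was higher. Over all 481 tested entries 30.6% passed, 22.9% as higher and 7.69% as lower, and a single member is too few to stand apart from that background. For 3 members the groups did not overlap, all as lower, where 52.8% of all tested entries did not overlap (40.5% as higher and 12.3% as lower). Among the 3 is miR-222-z, which passed the filter only with the moderate hypoxia libraries included. Its part in this count and in the median of the members is therefore no support. The 5 members had a median log2 change of -0.41, beside 0.32 for all tested entries.

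**Figure D2:**
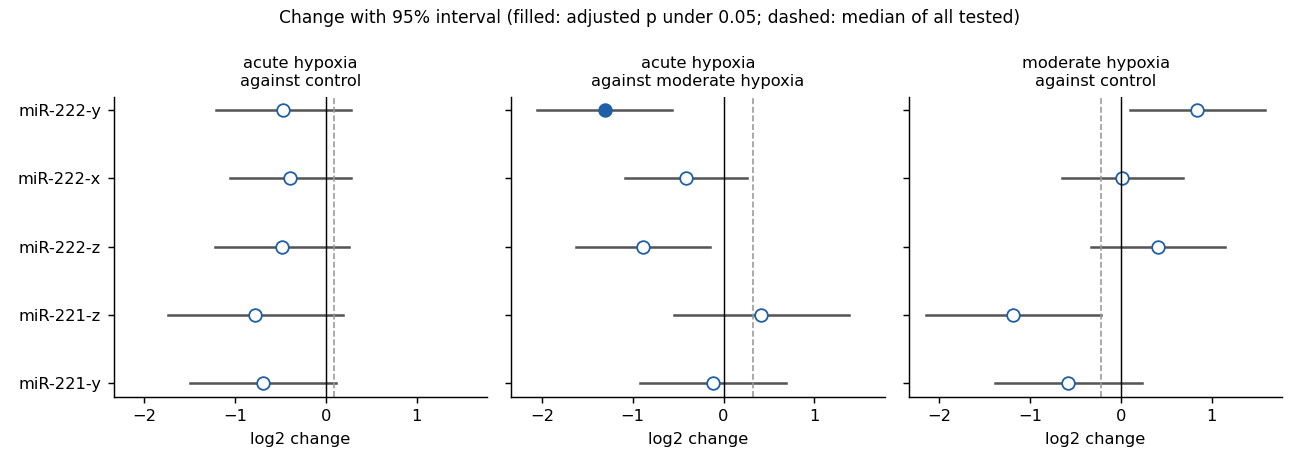
Log2 change of the 5 tested members in the 3 comparisons, on log2(TPM + 1), with 95% intervals, a filled point where adjusted p was under 0.05, and the median of all tested entries as a dashed line. The miR-222-y change of -1.31 between acute and moderate hypoxia is the single filled point, and against control under moderate hypoxia miR-222-y and miR-221-z lie on opposite sides of 0.

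Moderate hypoxia against control asks what that treatment changes, and no member passed. The 2 leading arms lay on opposite sides of 0. The miR-222-y libraries at 4122, 4647 and 4372 TPM under moderate hypoxia were above the controls, at 1523, 2620 and 3646 TPM. Its log2 value was 0.84 (SE 0.34, 95% interval 0.10 to 1.59, limma adjusted p = 0.0836). It passed without control 3 (1.13, adjusted p = 0.0378), and was 0.50 without control 1 (adjusted p range of 0.0378 to 0.390 over 21 alternatives). The authors' deposited table has it at 0.75 with a false discovery rate of 0.0474, where 151 of 1413 entries (10.7%) are under 0.05.

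In contrast miR-221-z was below every control under moderate hypoxia, with 154, 147 and 152 TPM against 736, 175 and 317 TPM in control. Its log2 value was -1.19 (SE 0.44, 95% interval -2.15 to -0.22) and also missed the threshold (limma adjusted p = 0.0690). Control 1 weighed on it: without that library the value was -0.64, and without control 2 it passed at -1.67 (adjusted p = 0.0164). Treating the library numbers as a block gave the same -1.19 with an adjusted p of 0.0314. The adjusted p over 21 alternatives ran from 0.0164 to 0.339. With moderate hypoxia library 3 alone in its group the values were -1.18 for miR-221-z and 0.84 for miR-222-y, and without library 3 they were -1.19 and 0.84. A group left with 1 library is assumed to vary like the others.

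The remaining members overlapped between moderate hypoxia and control. Values of miR-221-y were 91.1, 128 and 109 TPM under moderate hypoxia, against 313, 100 and 135 TPM in control (log2 value -0.58, 95% interval -1.39 to 0.23, limma adjusted p = 0.272). For miR-222-x they were 300, 322 and 321 TPM under moderate hypoxia and 532, 245 and 232 TPM in control, with a log2 value of 0.013 (95% interval -0.65 to 0.68). The rare miR-222-z had 1.35, 1.21 and 2.42 TPM under moderate hypoxia and 0.193, 1.07 and 2.09 TPM in control, with a log2 value of 0.41 (95% interval -0.33 to 1.14). The background was 25.6% of entries passing (7.90% higher and 17.7% lower), and 43.2% with groups that did not overlap (12.5% higher and 30.8% lower), beside 2 of the 5 members, 1 each way. The median of all tested entries was -0.22, so that miR-222-y stood 1.06 above it and miR-221-z at -0.97 from it.

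Acute hypoxia against control showed no passing member and no member whose groups were apart. All 5 tested members had a negative log2 value: -0.78 for miR-221-z, -0.69 for miR-221-y, -0.48 for miR-222-z, -0.47 for miR-222-y and -0.40 for miR-222-x. Limma gave them adjusted p-values of 0.557 to 0.676. All 5 intervals cover 0, the widest being -1.74 to 0.19 for miR-221-z, so a fall by more than 2-fold is within each of them. Over all entries limma called 0 of 481 (0%), with 47 at an unadjusted p under 0.05, and 11.2% had groups that did not overlap (8.94% higher and 2.29% lower). The authors' deposited table of this pair has 0 of 1139 entries under a false discovery rate of 0.05.

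The control group decides much of this. Control 1 had 736 TPM of miR-221-z, 313 of miR-221-y and 532 of miR-222-x, above every other library for all 3, and yet 1523 TPM of miR-222-y, the lowest control. In the same library the hepatocyte miRNAs summed to 342298 TPM, against 484334 and 528359 TPM in controls 2 and 3. Without control 1 the acute hypoxia values were -0.23 for miR-221-z, -0.22 for miR-221-y, -0.011 for miR-222-x and -0.81 for miR-222-y. The 3 comparisons share libraries, so these values are not independent of one another.

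Ratios within a library do not depend on how libraries were scaled. The length forms of the seed-sharing arm were added together for each miRNA. The ratio of miR-222 to miR-221 was then 6.62, 5.38 and 5.62 under acute hypoxia, 16.9, 16.9 and 16.8 under moderate hypoxia, and 1.45, 9.52 and 8.07 in control. Moderate hypoxia held the highest ratio, with no overlap with either group. Averaged on the log2 scale with 1 TPM added, it differed by -1.53 for acute against moderate hypoxia and by 1.81 for moderate hypoxia against control, each with an exact two-sided permutation p of 0.10. That is the smallest p that 3 against 3 libraries allow, and 0.30 after adjustment over 9 such tests. It takes the moderate hypoxia libraries as independent of one another, which was not tested. Without control 1 the second difference was 0.94, and with moderate hypoxia library 3 as the only one of its group the 2 differences were -1.52 and 1.80. Acute hypoxia against control gave 0.28 (exact permutation p = 1.0), or -0.58 without control 1.

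The 2 arms of the miR-222 hairpin also stood in unequal ratio. The seed-sharing arm exceeded miR-222-x by 9.29, 6.12 and 7.33 times under acute hypoxia, 13.7, 14.4 and 13.6 times under moderate hypoxia, and 2.86, 10.7 and 15.7 times in control. The log2 difference of acute against moderate hypoxia was -0.90, without overlap (exact permutation p = 0.10, adjusted p = 0.30). Moderate hypoxia against control gave 0.83 (exact permutation p = 0.400) and acute hypoxia against control -0.072 (exact permutation p = 0.900). Since control 1 alone read 2.86, the control range spans both hypoxia groups.

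For miR-221 the arm ratio was far larger and poorly measured, because miR-221-x had no more than 3 to 42 reads in a library. It was 949, 476 and 445 under acute hypoxia, 130, 97.4 and 614 under moderate hypoxia, and 3620, 404 and 586 in control. All 3 comparisons overlapped. Log2 differences were taken after adding 1 TPM to each arm, an amount close to the miR-221-x mean of 0.940 TPM. They are therefore not the differences of the ratios just given. The value was 0.93 for acute against moderate hypoxia (exact permutation p = 0.30), and 1.45 or 0.48 with 0.1 or 5 TPM added. It was -1.64 for moderate hypoxia against control (exact permutation p = 0.20), and -2.14 or -1.21 with those amounts. For acute hypoxia against control it was -0.71 (exact permutation p = 0.60), and -0.69 or -0.73 with those amounts.

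The 2 length forms of miR-221 kept a narrower relation. The longer form over the shorter was 0.459, 0.646 and 0.414 under acute hypoxia, 0.593, 0.869 and 0.718 under moderate hypoxia, and 0.425, 0.573 and 0.426 in control. Moderate hypoxia lay above control in every library and overlapped with acute hypoxia.

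**Figure D3:**
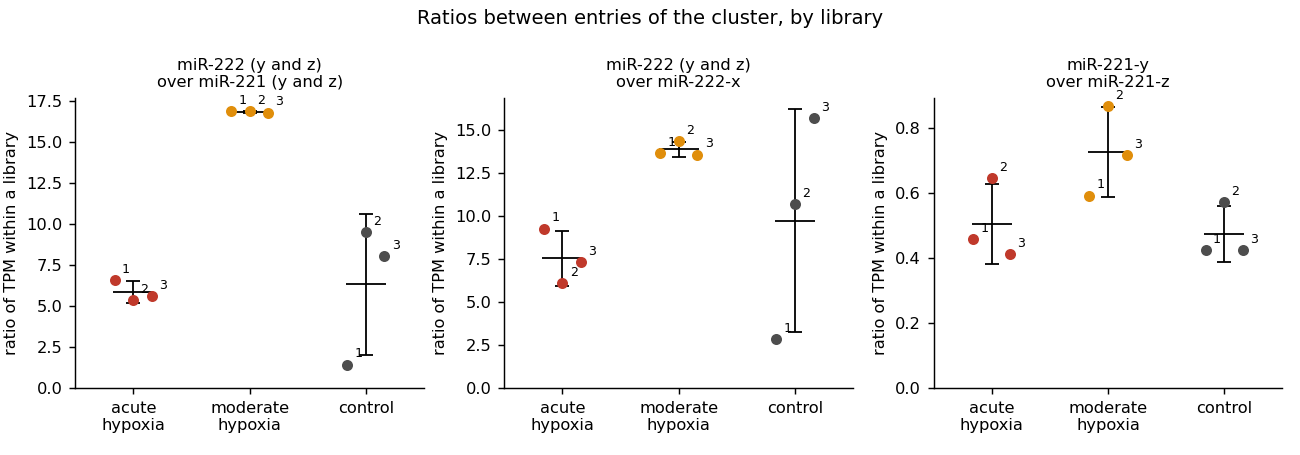
Ratios of TPM within each library (linear axes from 0), 1 numbered point per library, with group mean ± SD (n = 3). The miR-222 to miR-221 ratio sits at 16.8 to 16.9 in the moderate hypoxia libraries, at 5.38 to 6.62 in the acute ones and at 1.45 to 9.52 in the controls.

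Across the 9 libraries the members did not move as a unit. With log2(TPM + 1), miR-222-y had a Pearson correlation of -0.34 with miR-221-z, -0.17 with miR-221-y and 0.10 with its own opposite arm miR-222-x, and 0.84 with its long form miR-222-z. The 2 forms of miR-221 had 0.89 with each other, or 0.55 without control 1, and miR-221-y had 0.83 with miR-222-x, or 0.38 without control 1. With that library left out, miR-222-y and miR-222-x had 0.85, miR-221-y and miR-222-y 0.58, and miR-221-z and miR-222-y 0.021. The 9 values share their libraries and 3 groups, so these numbers describe this set only.

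The tested entries of other names most like miR-222-y by the same measure were miR-92-y (0.91) and miR-16-x (0.89), then miR-128-z (0.86), miR-146-y (0.85), miR-9-y (0.83) and miR-23-x (0.79). Low in abundance among these were miR-128-z, miR-9-y and miR-23-x, with means of 3.80, 1.30 and 2.18 TPM, not far above the 1 TPM filter. Spearman's rho for these 6 ran from 0.67 to 0.93. The most abundant of them, miR-92-y, averaged 6418 ± 2090 TPM under acute hypoxia, 8366 ± 74.1 TPM under moderate hypoxia and 7251 ± 1197 TPM in control (SD, n = 3 each). Most opposed were miR-214-x (-0.95), of a cluster known from stromal cells, and miR-33-x (-0.95), encoded within the sterol regulator genes SREBP. The stromal miR-214-x averaged 19.3 ± 3.74 TPM under acute hypoxia, 8.91 ± 0.679 TPM under moderate hypoxia and 15.8 ± 3.37 TPM in control.

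**Figure D4:**
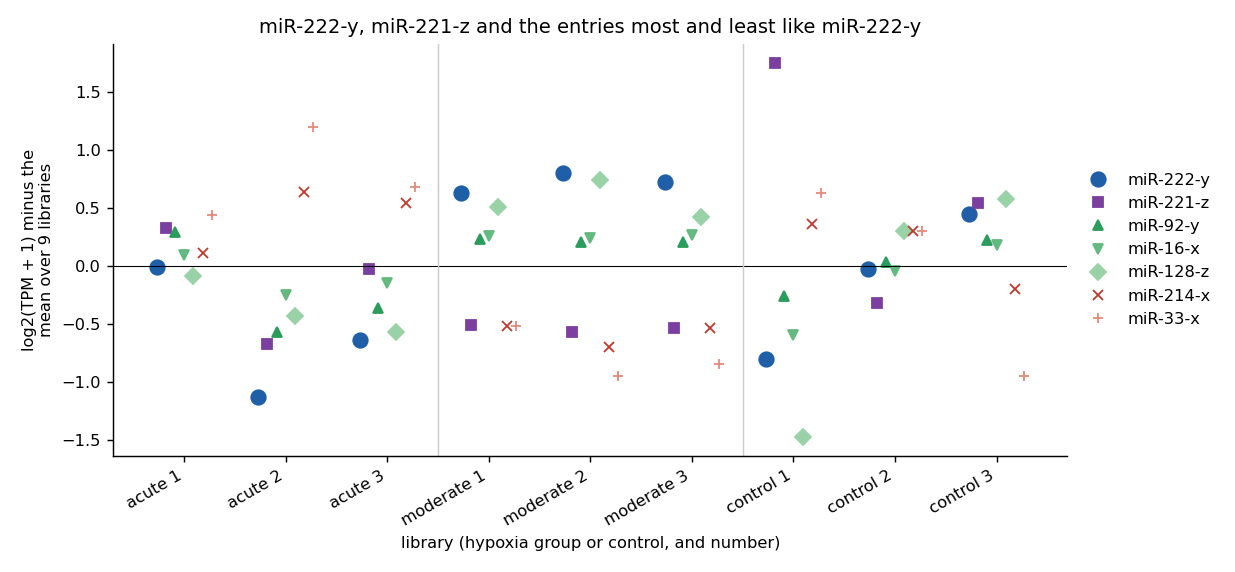
Level of miR-222-y, miR-221-z, the 3 entries most like miR-222-y and the 2 least like it, in each of 9 libraries, as log2(TPM + 1) minus the entry's mean over the 9. In control 1 miR-221-z stands at 1.75 while miR-222-y is at -0.80, and in the 3 moderate hypoxia libraries miR-222-y is at 0.63 to 0.80 and miR-221-z at -0.57 to -0.51.

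Endothelium, stroma and smooth muscle, leukocytes, red blood cells and hepatocytes were followed by their marker miRNAs. The 2 entries of endothelial miR-126 summed to 13401 to 19700 TPM under acute hypoxia, 6719 to 7379 TPM under moderate hypoxia and 11982 to 16161 TPM in control. Both were higher under acute than moderate hypoxia, with log2 changes of 1.22 for miR-126-y (limma adjusted p = 0.00177) and 1.04 for miR-126-x (adjusted p = 0.00721), the opposite direction to miR-222-y. Without moderate hypoxia libraries 1 and 2 neither passed (1.21 with adjusted p = 0.0975 for miR-126-y and 1.06 with adjusted p = 0.128 for miR-126-x), and without library 3 both did. The 11 entries of stroma and smooth muscle summed to 110191 to 143891 TPM under acute hypoxia, 84960 to 93953 TPM under moderate hypoxia and 86027 to 122272 TPM in control. Of the 10 tested, 4 were higher under acute than moderate hypoxia and none lower, where 22.9% of all tested entries were higher. The count was 0 or 1 higher and 1 lower under the other 4 scalings, 0 without moderate hypoxia libraries 1 and 2, and 2 higher without library 3.

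Leukocyte miRNAs, with 12 entries, summed to 13291 to 18441 TPM under acute hypoxia, 10702 to 10965 TPM under moderate hypoxia and 14977 to 21396 TPM in control. Most of that sum is miR-146-x, which did not pass for acute against moderate hypoxia (0.55, limma adjusted p = 0.0582). Its other arm miR-146-y was lower there, at -0.81 (adjusted p = 0.0150), and miR-223-y, with a mean of 13.1 TPM, was higher, at 0.91 (adjusted p = 0.0114). They were the 1 lower and 1 higher of 8 tested leukocyte entries, where 7.69% of all tested entries were lower and 22.9% higher. Under the other 4 scalings 0 or 1 leukocyte entry was higher and 1 lower, and without moderate hypoxia library 3 it was 1 each way. The 6 red blood cell entries summed to 2156 to 3122 TPM under acute hypoxia, 679 to 872 TPM under moderate hypoxia and 2017 to 3512 TPM in control. Of these, 3 were higher under acute than moderate hypoxia, among them miR-451-x at 1.52 (limma adjusted p = 0.000338). The miR-486-x entry was lower, at -4.71 (adjusted p = 5.27e-06). Over all tested entries 22.9% were higher and 7.69% lower. The count was 2 higher and 1 lower under the other 4 scalings, and the same without moderate hypoxia library 3. Hepatocyte miRNAs summed to 434292 to 489697 TPM under acute hypoxia, 543881 to 568742 TPM under moderate hypoxia and 342298 to 528359 TPM in control. That sum is mostly miR-122-x, which did not pass for acute against moderate hypoxia (-0.25, limma adjusted p = 0.345). In that comparison miR-192-x was lower, at -0.66 (adjusted p = 0.0301), and miR-194-x was higher, at 1.64 (adjusted p = 0.000221). Of the 7 hepatocyte entries 1 was higher and 1 lower, also under the other 4 scalings. Without moderate hypoxia library 3 the count was 1 higher and 0 lower, so the lower call was lost. Leaving out moderate hypoxia libraries 1 and 2 gave median log2 changes of 0.54 for leukocytes, 0.75 for red blood cells and 0.12 for hepatocytes. With all libraries these medians were 0.42, 0.73 and 0.13. Calls of these lists are not given for that setting, as 1 library then stands for the group. No entry of these lists was at 0 throughout a group. The part of these cells in the miR-222-y values was not tested, and in whole tissue a change in the number of cells cannot be told apart from a change of RNA per cell.

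Beside the members were set 3 lists of other miRNAs, tied to processes in which miR-221 and miR-222 are known in mammals. The vessel growth and fibrosis lists were not split by whether an entry promotes or restrains the process. Their counts therefore do not follow 1 shared role. Of 38 tested entries tied to vessel growth, 15 were higher and 2 lower under acute than moderate hypoxia (median 0.48), among the higher miR-126-y and among the lower miR-10-x at -1.67 (limma adjusted p = 0.000167). Of 29 tied to liver cancer 12 were higher and 1 lower (median 0.55). Among the higher was miR-210-y, the hypoxia-induced miRNA of mammals, at 2.32 (adjusted p = 0.000201). That entry was lower under moderate hypoxia than in control (-1.94, limma adjusted p = 0.00139). It did not pass for acute hypoxia against control. Of 28 tied to stellate cell activation and fibrosis, 8 were higher and 1 lower under acute than moderate hypoxia (median 0.37). Among the higher was miR-21-y at 1.27 (adjusted p = 0.0299). The 2 arms of miR-30 parted in that list, with miR-30-x at 0.96 (adjusted p = 0.0132) and miR-30-y, its single lower entry, at -1.09 (adjusted p = 0.00203). Under the other 4 scalings vessel growth had 12 to 14 higher and 2 to 6 lower, liver cancer 7 to 10 higher and 1 to 2 lower, and fibrosis 2 to 5 higher and 2 lower. Without moderate hypoxia libraries 1 and 2 they were 6 higher and 1 lower for vessel growth, 5 higher and 0 lower for liver cancer, and 0 in either direction for fibrosis. Without library 3 they were 14 higher and 3 lower, 9 higher and 1 lower, and 4 higher and 2 lower for the same lists. The 30.6% of all entries that passed, mostly as higher, is the background for the main counts, with a median of 0.32. The other 4 scalings gave 58 to 78 higher and 50 to 68 lower over all tested entries, in place of 110 and 37. Without library 3, 129 passed in place of 147. Far fewer passed over all without moderate hypoxia libraries 1 and 2, so the smaller list counts there are not particular to the lists. The lists share entries, so their counts are not independent. For example, miR-27-y is in both the vessel growth and liver cancer lists, and miR-21-y in both the liver cancer and fibrosis lists.

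Under moderate hypoxia against control, vessel growth had 3 entries higher and 13 lower (median -0.48), liver cancer 1 higher and 11 lower (median -0.74), and fibrosis 1 higher and 4 lower (median -0.011). Over all tested entries 25.6% passed in this comparison, 7.90% as higher and 17.7% as lower, with a median of -0.22. Under the other 4 scalings vessel growth had 3 higher and 6 to 12 lower, liver cancer 1 higher and 6 to 8 lower, and fibrosis 2 to 3 higher and 0 to 1 lower. Without moderate hypoxia libraries 1 and 2 vessel growth had 1 higher and 2 lower, liver cancer 0 higher and 2 lower, and fibrosis 0 in either direction. Without library 3 vessel growth had 3 higher and 10 lower, liver cancer 1 higher and 8 lower, and fibrosis 2 higher and 1 lower. Over all tested entries the other 4 scalings gave 40 to 53 higher and 40 to 64 lower here, in place of 38 and 85. Without library 3, 90 passed in place of 123, and far fewer passed without moderate hypoxia libraries 1 and 2. None of the 3 lists had an entry that passed under acute hypoxia against control.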

How the data were processed

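Small-RNA libraries from trout liver were made with standard Illumina protocols after Trizol extraction, per the labels. Neither aligner nor build nor counting step is stated in the sources used. The authors stacked 3 tables, 1 per pair of groups, in the deposited file. Its abundance values, a signal scaled to a total of 1000000 per library and named TPM per the file headers, have 0.01 in place of 0. The deposited log2 fold changes, p-values and adjusted values (false discovery rates) stand beside them, and the authors name no test. Both tables that include moderate hypoxia list an identical set of 1413 entries and were joined. The table without it, with 1139 entries, served as an alternative. Low values were whole multiples of 1 step per library (100% within 0.1 read), which gave the read numbers.

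The 481 entries averaging 1 TPM or more were analysed as log2(TPM + 1) by limma-trend (version 3.58.1 under R 4.3.3), fitting the mean of each group over all 9 libraries, with Benjamini and Hochberg adjustment within each comparison at 0.05. Ratios were compared with exact permutation tests (scipy 1.17.1, Python 3.11.15). The fit was also run on simulated reads, with independent libraries and the same relative spread for all entries and groups. The tight moderate hypoxia group is unlike that setting, so the simulation cannot vouch for the calls. Members and lists (vessel growth, liver cancer, stellate cells and fibrosis, endothelium, leukocytes, red blood cells, stroma, hepatocytes) were chosen with earlier results of these data known, and matched on the miRNA number. Named beside the members were, by rule, the 6 entries most and 3 least like miR-222-y, its neighbours in abundance, and of each list the most abundant and passing entries, of which some are not printed. The imprinted cluster list, and list counts without moderate hypoxia libraries, were added after seeing the data. Alternatives changed the pseudocount, filter, scaling, samples, block and repeated sequences.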

Additional observations from a re-analysis of the deposited data

How the results depend on the processing

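Of 316 alternative values for the 5 tested members, 295 kept their direction and their side of the threshold. Many could not change direction, since the filter, the block or leaving out a library of the third group does not alter the log2 change. The total is therefore no measure of firmness. The 1 passing call, miR-222-y for acute against moderate hypoxia, kept its side in 15 of 21 alternatives. For acute against moderate hypoxia, the fall of miR-222-y was also lost without a filter (-1.31, adjusted p = 0.0712), with quantile normalization (-1.32, adjusted p = 0.0652) and without moderate hypoxia libraries 1 and 2 (-1.31, adjusted p = 0.163). In that comparison miR-222-z passed with a trimmed mean of M values (-1.02), the median of ratios (-1.06) only the groups compared (-0.89), or without control 1 or 3 (-0.89 each), and quantile normalization took miR-222-x past the threshold (-1.03) and turned miR-221-z to -0.19. Leaving out 1 library gave -1.60 to -1.04 for miR-222-y, -1.01 to -0.69 for miR-222-z and -0.28 to 0.0033 for miR-221-y, whose sign turned without moderate hypoxia library 2 (0.0033). For moderate hypoxia against control the ranges were 0.50 to 1.13 for miR-222-y and -1.67 to -0.64 for miR-221-z, and they were -0.20 to 0.40 for miR-222-x, which turned negative without control 2 (-0.16), control 3 (-0.20), moderate hypoxia 2 (-0.0048) or moderate hypoxia 3 (-0.0019). The causes of these shifts were not tested.

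The number of entries called over all tested was 123 for moderate hypoxia against control (38 higher, 85 lower), 57 without a filter, 75 at a mean of at least 10 TPM, 80 with quantile normalization, 10 without moderate hypoxia libraries 1 and 2, and 61 to 129 with 1 library left out. For acute against moderate hypoxia it was 147 (110 higher, 37 lower), 83 at a mean of at least 10 TPM, 28 without moderate hypoxia libraries 1 and 2, and 73 to 186 with 1 left out. For acute hypoxia against control it was 0 in all 22 alternatives. The filter settings change how many entries are tested, 1413 without a filter and fewer than 481 at 10 TPM. Their counts are therefore not shares of 481, and a lower count at 10 TPM need not be a smaller share. The split into higher and lower moves with the scaling: 52 and 52 for moderate hypoxia against control and 61 and 68 for acute against moderate hypoxia with the median of ratios, where the medians of all entries were -0.038 and 0.045 in place of -0.22 and 0.32.

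With 1 library left out, the log2 ratio of miR-222 to miR-221 differed by 0.94 to 2.30 for moderate hypoxia against control, -1.62 to -1.46 for acute against moderate hypoxia and -0.58 to 0.77 for acute hypoxia against control. The arm ratio of miR-222 ranged over -0.80 to 0.43 for acute hypoxia against control, turning without control 2 (0.15), control 3 (0.43) or acute hypoxia 2 (0.072).

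The libraries share label numbers, and same-numbered libraries deviated together by correlations of only -0.21 to 0.26 over 9 pairs. The main fit therefore left them unpaired, though low correlations cannot exclude a factor shared by number. With the replicate block miR-221-z passed for moderate hypoxia against control (-1.19, adjusted p = 0.0314) and no other member call changed. The planned count tests on recovered reads were not run. miR-222-z averages under 1 TPM in the separate table and under 10 TPM over the 9 libraries, so those alternatives gave it no value. Depth limits miR-221-x and miR-222-z, with 2 to 42 reads per library.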

Other observations

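The listed sequence of miR-222-z differed between the deposited tables while its values were nearly equal. The separate table of acute hypoxia with control ends it in TA:
joined tables: agctacatctggctactgggtctcaa
separate table: agctacatctggctactgggtctcta
Both give 0.422 and 0.355 TPM for acute hypoxia libraries 1 and 2, and 0.193, 1.07 and 2.09 TPM for the controls. Acute hypoxia library 3 has 0.456 TPM in the separate table and 0.455 TPM in the joined tables. The deposited sequence is therefore not a full account of the reads counted under that name. The other 5 members have the same sequence in both.

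The tightness of the moderate hypoxia group was not particular to the cluster. Of the 98 entries that average 100 TPM or more, 78 had their smallest spread on the log2 scale in that group, as did 4 of the 6 members. Over all 481 tested entries it was 252 (52.4%).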
